A study of Danio rerio with 28 samples.

Results

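The genes described here code for proteins of the provisional matrix, the loose scaffold laid down in a wound before collagen replaces it. They were chosen by name: fibronectin (fn1a and fn1b), tenascin C (tnc), periostin (postna and postnb), SPARC (sparc) and vimentin (vim). The symbol table paired these 7 names with 5 symbols and 9 Ensembl identifiers, of the 32520 genes in the tables. Fibronectin (FN1), tenascin C (TNC), periostin (POSTN) and vimentin (VIM) each had a pair of identifiers. The names tnc and vim carry no copy letter, so an identifier in each of those pairs may be another locus with the same symbol. The table does not say which identifier is the a or the b copy, so each copy is named by its symbol and the last digits of its identifier: FN1-6526 (ENSDARG00000006526), FN1-9815 (ENSDARG00000019815), TNC-1948 (ENSDARG00000021948), TNC-8362 (ENSDARG00000078362), POSTN-3806 (ENSDARG00000043806), POSTN-4267 (ENSDARG00000104267), SPARC (ENSDARG00000019353), VIM-0008 (ENSDARG00000010008) and VIM-4501 (ENSDARG00000044501).

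Fibronectin is a large secreted glycoprotein that cells assemble into fibrils through integrins, and in the injured zebrafish heart it is known as an early product of the epicardium, the outer cell layer of the heart. Tenascin C, periostin and SPARC are matricellular proteins: they are secreted into the matrix and change how cells attach to it, and periostin and SPARC also bind collagen. Vimentin is not a matrix protein but the intermediate filament of fibroblasts, endothelium and other mesenchymal cells, and it stands here as their companion inside the cell.

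RNA was sequenced from hearts of adult zebrafish in 2 experiments. The protocol for resection gives the fish an age of 4 to 6 months. The time course compared WT with heterozygotes for a frameshift insertion in thraa (thraa+/-), the gene of a thyroid hormone receptor, at 6 stages: the apex of uninjured ventricles, and the injured zone at 8 h (8 hpi) and 1, 3, 7 and 15 days (dpi) after about 20% of the ventricle was resected at the apex. Each of these 12 groups held 2 libraries, and each library was made from tissue of at least 5 fish. The second experiment compared uninjured hearts of WT and thraa-/- fish, again with 2 libraries a group. The time-course labels call the mutant samples knockouts, and the series' design text gives them as thraa+/-. The second set is titled entire hearts, while its protocol names ventricles. Tricaine, the anaesthetic, was the one agent the labels name for all groups, and they name no other allele.

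Libraries held between 13692204 and 18775025 counts in the time course and between 13656671 and 16532401 in the whole hearts. The 9 genes together took between 0.0329% and 1.03% of a time-course library. The labels could not be checked at the mutation itself, since counts per gene do not show which allele a read came from. THRA (ENSDARG00000000151), the receptor gene, stood at 4.80 and 5.51 CPM in uninjured WT and at 4.58 and 3.16 CPM in uninjured thraa+/-. In whole hearts it stood at 6.58 and 5.32 CPM in WT and 13.3 and 9.75 CPM in thraa-/-. CPM, the usual count scaled to library size, uses totals scaled by the trimmed mean of M values (TMM). The tissue changed over the time course: summed over a list of cardiomyocyte markers, the level lay between 63904 and 73230 CPM in uninjured libraries and between 16278 and 23128 CPM at 3 and 7 dpi. A list of 7 fibroblast markers went from between 791 and 1299 CPM to between 11248 and 11431 CPM at 7 dpi, and a list of 4 skin markers reached between 3849 and 4038 CPM in thraa+/- at 1 and 3 dpi. In such bulk tissue, more cells of a type and more RNA per cell cannot be told apart. In the 8 hpi libraries of thraa+/- replicates stood furthest apart, with a spread 23.9 times that of counting, against 1.88 to 8.68 in the other time-course groups. The same measure was 15.4 in whole hearts of WT and 8.11 in those of thraa-/-.

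All but 1 of the 9 genes were higher at 7 dpi than in the uninjured apex, in WT and in thraa+/-, and the exception in both was VIM-4501. A gene was called when its adjusted p was under 0.05 and its log2 fold change was at least 1 in either direction. Among all 17837 genes tested, 24.2% were called higher and 13.6% lower at 7 dpi in WT, and 22.4% and 14.1% in thraa+/-. The median log2 fold change of the 9 genes at 7 dpi was 2.72 in WT and 2.94 in thraa+/-, beside medians over all genes of 0.22 and 0.14. With count ratios for genes at the floor of 3 counts a library, the thraa+/- median was 2.99.

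The time before that rise was not quiet. At 8 hpi in WT, 4 of the 9 genes had fallen (SPARC, VIM-0008 and both periostin copies) and none had risen, where 12.5% of all genes fell and 16.5% rose. In thraa+/- the same 4 genes fell at 8 hpi, where 12.9% of all genes did, and 3 of 9 rose, where 17.5% did. Sums of cell type markers also changed at 8 hpi, and not all in the same direction. The fibroblast sum was 472 to 494 CPM at 8 hpi in WT against 1272 to 1299 CPM uninjured (5 of 7 markers called lower) and 399 to 414 CPM in thraa+/- against 791 to 832 CPM (4 of 7). The cardiomyocyte sum in WT was 33827 to 34196 CPM against 70438 to 73230 CPM, and the skin sum 1835 to 1899 CPM against 497 to 515 CPM (3 of 4 called higher). In thraa+/- the cardiomyocyte sum was 28856 to 37152 CPM against 63904 to 64919 CPM, and the skin sum 1173 to 1299 CPM against 144 to 162 CPM. The leukocyte sum rose, to 192 to 206 CPM in WT from 88.3 to 88.7 CPM, and to 656 to 745 CPM in thraa+/- from 51.8 CPM. The epicardial sum rose too, to 297 to 298 CPM in WT from 250 to 254 CPM. In thraa+/- it reached 266 to 276 CPM from 77.6 to 82.2 CPM. The endothelial and skeletal muscle sums fell in both genotypes. The liver sum fell in WT and rose in thraa+/-, and the erythrocyte sum fell in WT and overlapped in thraa+/-. The part of these cell types in the falls of the matrix genes was not tested. At 1 dpi 3 were higher and 2 lower in WT (all genes 14.8% and 10.8%), and 3 were higher and 3 lower in thraa+/- (16.8% and 13.8%). At 3 dpi 6 were higher and none lower in WT (20.8% and 14.4%) and the count was also 6 and none in thraa+/- (19.2% and 12.7%). At 15 dpi 4 were still higher in WT (11.3% of all genes) and 5 in thraa+/- (7.88%), and none was lower (7.36% and 4%). In these tallies, calls of TNC-8362 and VIM-4501, and of TNC-1948 in thraa+/-, rest on uninjured groups of at most 3 counts a library.

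Of the set, FN1-6526 had the highest TPM in WT at 7 dpi, 1067 and 1097 TPM beside 812 and 818 TPM of SPARC. TPM depends on the transcript length that RSEM assigned. For FN1-6526 that length differed between libraries, as described below, so the ranking in TPM rests on it. FN1-6526 stood at 446 and 468 CPM in the uninjured WT apex, 302 and 278 CPM at 8 hpi, 575 and 602 CPM at 1 dpi, 980 and 971 CPM at 3 dpi, 3022 and 2995 CPM at 7 dpi and 873 and 961 CPM at 15 dpi. The 7 dpi libraries lay above every other WT library. The rise over uninjured was 2.72 ± 0.08 in log2 fold change (SE from the fit to all time-course libraries, n = 2 libraries a group, adjusted p = 3.93e-30, edgeR). In thraa+/- the levels were 208 and 202 CPM uninjured, 290 and 242 CPM at 8 hpi, 713 and 690 CPM at 1 dpi, 1523 and 1560 CPM at 3 dpi, 4069 and 4057 CPM at 7 dpi and 1211 and 1169 CPM at 15 dpi. From 1 dpi on, each thraa+/- library was above both WT libraries of its time in CPM, and uninjured each was below both. The rise at 7 dpi was 4.31 ± 0.08 in log2 fold change (adjusted p = 2.7e-36). The WT call at 15 dpi was at the edge of the fold cutoff: it was 1.01 with all libraries, 0.96 without WT uninjured replicate 1 and 0.94 without WT 15 dpi replicate 2.

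The other fibronectin copy moved earlier. FN1-9815 stood at 41.6 and 51.8 CPM uninjured in WT, 75.4 and 66.4 CPM at 8 hpi, 282 and 282 CPM at 1 dpi, 1689 and 1703 CPM at 3 dpi, 1020 and 1029 CPM at 7 dpi and 187 and 191 CPM at 15 dpi. The 3 dpi libraries were the highest, and that rise was 5.18 ± 0.09 in log2 fold change (adjusted p = 8.23e-37). In thraa+/- FN1-9815 was at 18.6 and 17.1 CPM uninjured, 105 and 95.6 CPM at 8 hpi, 220 and 227 CPM at 1 dpi, 1031 and 1026 CPM at 3 dpi, 1004 and 1003 CPM at 7 dpi and 200.1 and 173 CPM at 15 dpi. The highest group mean was thus at 3 dpi in both genotypes. From 3 to 7 dpi the log2 fold change of FN1-9815 was -0.04 in thraa+/- (adjusted p = 0.727) and -0.73 in WT (adjusted p = 4.42e-11, under the fold cutoff), and the difference between these steps was not tested.

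TNC-1948 had the largest fold change of the set at 7 dpi in WT. In WT it stood at 1.20 and 1.56 CPM uninjured, 0.835 and 0.990 CPM at 8 hpi, 7.12 and 7.07 CPM at 1 dpi, 65.8 and 61.1 CPM at 3 dpi, 92.6 and 98.0 CPM at 7 dpi and 2.44 and 2.92 CPM at 15 dpi. The groups at 3 and 7 dpi stood clear of all others, with a log2 fold change of 6.10 ± 0.17 at 7 dpi (adjusted p = 1.73e-30), and TNC-1948 fell by 5.15 on the log2 scale between 7 and 15 dpi (adjusted p = 1.33e-30). At 15 dpi the log2 fold change against uninjured WT was 0.96, which passed 1 without WT uninjured replicate 2 (1.15) or without WT 15 dpi replicate 1 (1.09). In thraa+/- it held 1 count and 0 counts in the uninjured libraries, then 1.20 and 1.62 CPM at 8 hpi, 3.63 and 3.19 CPM at 1 dpi, 81.0 and 87.3 CPM at 3 dpi, 38.9 and 39.8 CPM at 7 dpi and 9.13 and 7.88 CPM at 15 dpi. The thraa+/- libraries were thus highest at 3 dpi and TNC-1948 fell by 1.096 on the log2 scale from 3 to 7 dpi (adjusted p = 6.79e-13), whereas in WT it was higher by 0.59 at 7 dpi than at 3 dpi (adjusted p = 8.1e-07, under the fold cutoff). The thraa+/- step was under the cutoff with total-count scaling (-0.97). Against the single uninjured count, the 3235 counts of thraa+/- at 3 dpi were 1678 times as many per effective library, with an exact 95% interval from counting alone of 301 to 66289.

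TNC-8362, the second tenascin C identifier, was near the floor of detection in most groups. Its levels reached 3.63 and 3.27 CPM in WT at 7 dpi (69 and 56 counts) and 1.84 and 1.35 CPM in thraa+/- (36 and 26 counts), against 1 and 1 counts in uninjured WT and 2 and 2 in uninjured thraa+/-. It was called higher at 3 and 7 dpi in both genotypes, though DESeq2 lost the WT call at 3 dpi (adjusted p = 0.0541). It was also called lower at 1 dpi in thraa+/-, with 0 and 0 counts against 2 and 2 uninjured, a difference of so few counts that no fold is given.

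The periostin copies differed in their time courses. POSTN-4267 was at 103 and 103 CPM in uninjured WT, 26.2 and 26.1 CPM at 8 hpi, 23.3 and 27.4 CPM at 1 dpi, 299 and 302 CPM at 3 dpi, 1249 and 1255 CPM at 7 dpi and 505 and 490 CPM at 15 dpi. It therefore fell before it rose, with a log2 fold change of -1.97 ± 0.08 at 8 hpi (adjusted p = 8.44e-25) and 3.61 ± 0.07 at 7 dpi (adjusted p = 4.12e-35). In thraa+/- its levels were 42.5 and 42.4 CPM uninjured, 14.3 and 14.0 CPM at 8 hpi, 34.2 and 33.5 CPM at 1 dpi, 364 and 364 CPM at 3 dpi, 1747 and 1797 CPM at 7 dpi and 391 and 381 CPM at 15 dpi. Periostin of this copy thus started lower in thraa+/- and was higher than in WT at 1, 3 and 7 dpi, with no overlap between the groups at any time.

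POSTN-3806 was at 25.3 and 20.7 CPM in uninjured WT, 7.58 and 6.51 CPM at 8 hpi, 26.1 and 27.4 CPM at 1 dpi, 43.4 and 39.4 CPM at 3 dpi, 121 and 121 CPM at 7 dpi and 53.3 and 56.8 CPM at 15 dpi. In thraa+/- it was at 26.9 and 23.6 CPM uninjured and 7.97 and 7.51 CPM at 8 hpi, overlapping WT. It then stayed low, at 4.70 and 2.50 CPM at 1 dpi and 13.2 and 13.8 CPM at 3 dpi, and only at 7 dpi reached 111 and 104 CPM, before 40.2 and 39.3 CPM at 15 dpi. Between 8 hpi and 1 dpi POSTN-3806 rose in WT by 1.92 in log2 fold change (adjusted p = 1.42e-15) and fell by 1.08 in thraa+/- (adjusted p = 4.65e-06, and under the cutoff at -0.95 with total-count scaling).

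SPARC and VIM-0008 had the largest falls of the set at 8 hpi in WT. SPARC was at 366 and 377 CPM in uninjured WT, 36.7 and 44.6 CPM at 8 hpi, 139 and 134 CPM at 1 dpi, 669 and 654 CPM at 3 dpi, 1124 and 1113 CPM at 7 dpi and 358 and 355 CPM at 15 dpi. Its 8 hpi libraries were the lowest of the series, with a log2 fold change of -3.19 ± 0.08 (adjusted p = 2.59e-31), and at 15 dpi it was back beside the uninjured level (log2 fold change -0.06, adjusted p = 0.534). In thraa+/- SPARC was at 164 and 161 CPM uninjured, 61.3 and 71.9 CPM at 8 hpi, 137 and 131 CPM at 1 dpi, 587 and 600.4 CPM at 3 dpi, 1004 and 1034 CPM at 7 dpi and 331 and 327 CPM at 15 dpi. The fall at 8 hpi there was -1.29 ± 0.08 in log2 fold change (adjusted p = 1.56e-18). That call was lost with total-count scaling (-0.81) and with limma on log2(TPM + 1) or log2(TPM + 0.1) (-0.84 and -0.86), and the WT call of SPARC at 1 dpi (-1.44) was lost with total-count scaling (-0.85).

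VIM-0008 was at 36.9 and 33.5 CPM in uninjured WT, 7.37 and 5.80 CPM at 8 hpi, 18.7 and 17.0 CPM at 1 dpi, 41.4 and 40.0 CPM at 3 dpi, 77.5 and 80.6 CPM at 7 dpi and 42.9 and 44.0 CPM at 15 dpi. In thraa+/- it was at 28.6 and 27.5 CPM uninjured, 3.28 and 5.23 CPM at 8 hpi, 11.7 and 14.0 CPM at 1 dpi, 30.1 and 32.5 CPM at 3 dpi, 50.9 and 61.4 CPM at 7 dpi and 54.0 and 52.7 CPM at 15 dpi. WT libraries were the higher ones at each time up to 7 dpi and thraa+/- libraries at 15 dpi. The WT rise at 7 dpi was 1.17 ± 0.11 in log2 fold change (adjusted p = 1.11e-12). In thraa+/- it was 1.00 (adjusted p = 1.85e-10) and fell under the cutoff without thraa+/- uninjured replicate 2 (0.99) or without thraa+/- 7 dpi replicate 2 (0.86). Calls at 1 dpi also sat at the cutoff: VIM-0008 had -1.13 in thraa+/- (-0.9957 without thraa+/- 1 dpi replicate 1) and -0.98 in WT (-1.03 without WT uninjured replicate 2, -1.04 without WT 1 dpi replicate 1), and the thraa+/- call was also lost with total-count scaling (-0.52) and on the TPM scales (-0.52 and -0.58). VIM-4501 had between 1 and 33 counts in each library, and its highest library was thraa+/- at 8 hpi with 1.99 CPM beside 0.602 CPM in the other. It was called higher than uninjured at 1 and 3 dpi in WT and at 8 hpi in thraa+/-, where 5 uninjured counts stood against 39, 50 and 36. DESeq2 lost the WT call at 1 dpi (adjusted p = 0.0547).

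**Figure D1:**
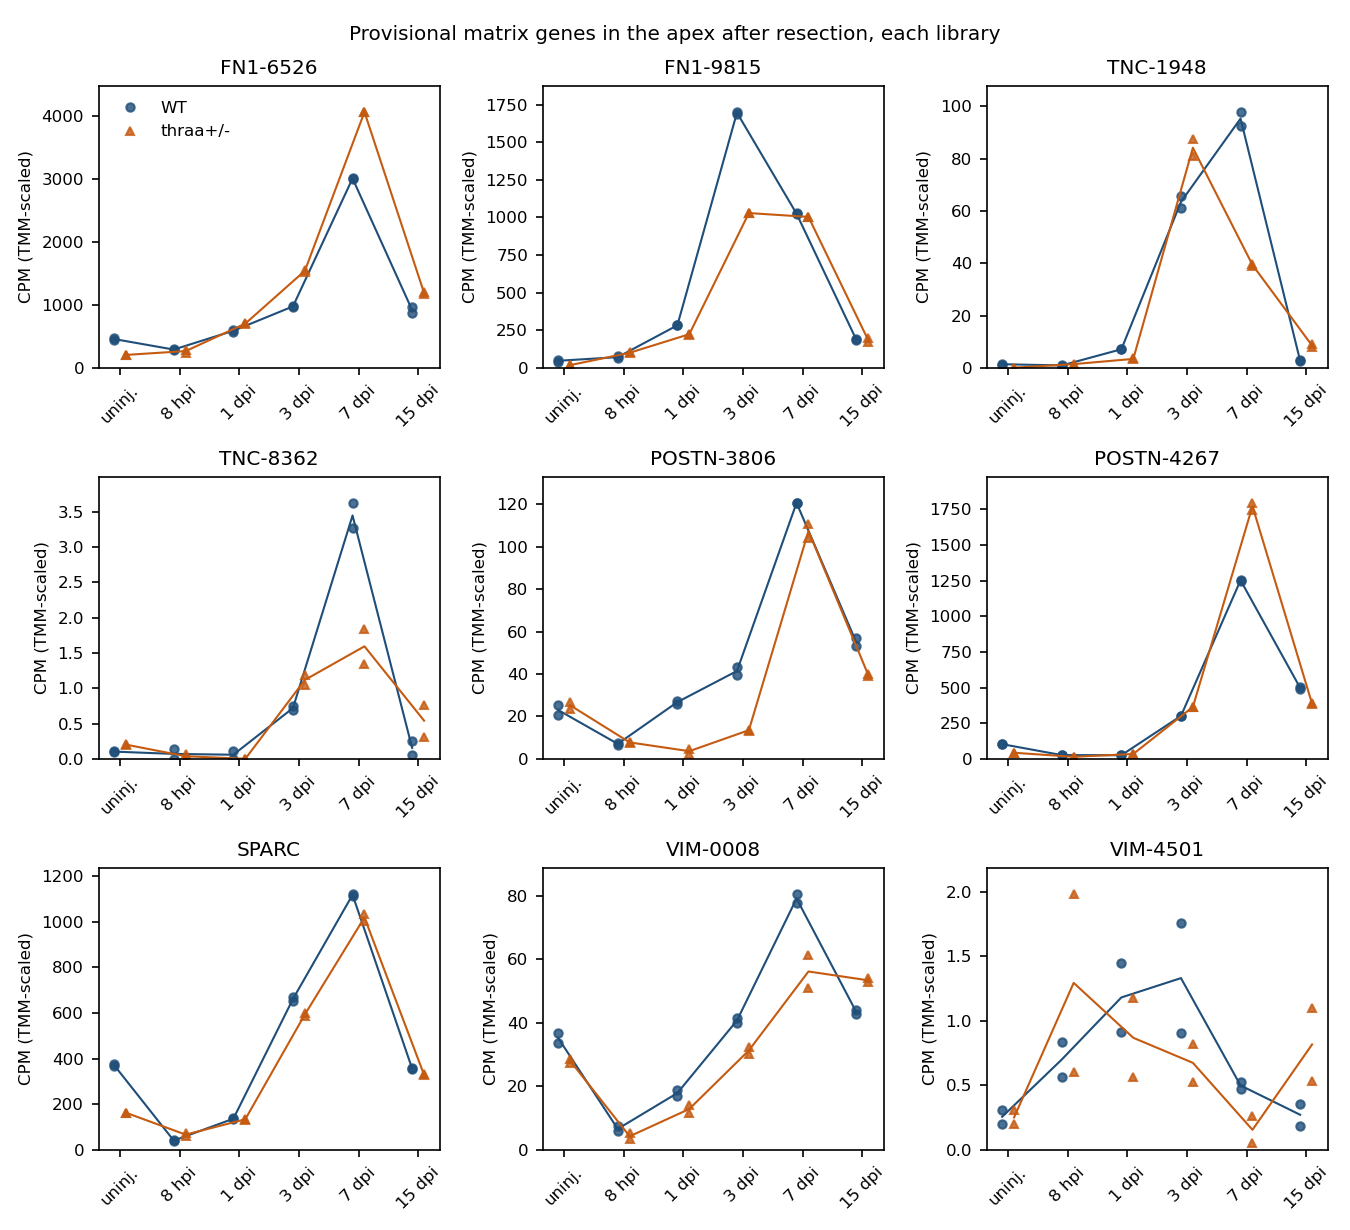
TMM-scaled CPM of the 9 provisional matrix genes in each library of the time course. Points are libraries (WT circles, thraa+/- triangles), lines join group means, and times are spaced evenly. Most genes peak at 7 dpi, FN1-9815 peaks at 3 dpi in WT (1689 and 1703 CPM), and POSTN-3806 stays low in thraa+/- at 1 and 3 dpi.

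Between neighbouring times, rises filled the steps up to 7 dpi and falls the step from 7 to 15 dpi. From 8 hpi to 1 dpi 6 of the 9 genes rose and none fell in WT (10.1% and 9.59% of all genes), and 6 rose and 1 fell in thraa+/- (6.28% and 6.06%). From 1 to 3 dpi 6 rose in WT (7.64%, with 4.23% lower) and 8 in thraa+/- (7.19%, with 3.66% lower), and none fell. From 3 to 7 dpi 4 rose and none fell in WT (13.3% and 9.92%), while in thraa+/- 3 rose and 2 fell (9.16% and 6.28%), TNC-1948 and the sparse VIM-4501 being those that fell (VIM-4501 with an adjusted p of 0.0601 by DESeq2). From 7 to 15 dpi 7 of 9 fell in WT and none rose (15.5% and 6.21% of all genes), and in thraa+/- 7 fell and VIM-4501 rose (16.5% and 8.67%). VIM-0008 was called in neither genotype at that step, and the thraa+/- call of TNC-8362 was lost with DESeq2 (adjusted p = 0.0898).

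Before injury, the genotypes differed in these genes. In the uninjured apex 5 of the 9 genes were lower in thraa+/- than in WT and none was higher, where 5.79% of all genes were lower and 5.68% higher. FN1-6526 was lower by a log2 fold change of -1.15 ± 0.07 (adjusted p = 1.01e-16), FN1-9815 by -1.39 ± 0.10 (adjusted p = 1e-14), POSTN-4267 by -1.28 ± 0.08 (adjusted p = 8.67e-18) and SPARC by -1.19 ± 0.07 (adjusted p = 3.45e-17). TNC-1948 held 12 and 15 counts in WT and 1 and 0 in thraa+/-, a ratio of 27.5 with a 95% counting interval of 4.53 to 1124 (adjusted p = 2.72e-06). POSTN-3806 overlapped between the genotypes, and VIM-0008 differed by -0.33 (adjusted p = 0.0323), under the fold cutoff. The median of the 9 genes was -1.15, or -1.19 without genes at the floor in both groups, and the median of all genes was 0.00.

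Markers of several cell types differed between the same uninjured libraries. The sum over 5 epicardial markers was 250 to 254 CPM in WT and 77.6 to 82.2 CPM in thraa+/-, with 2 of 5 called lower. The sum over 7 fibroblast markers was 1272 to 1299 CPM and 791 to 832 CPM, with 1 of 7 called lower, and that over 6 leukocyte markers was 88.3 to 88.7 CPM and 51.8 to 51.8 CPM, with 3 of 6 called lower. The sums of 5 liver markers (278 to 287 CPM in WT, 28.4 to 29.2 CPM in thraa+/-) and of 4 skin markers (497 to 515 CPM and 144 to 162 CPM) were also lower in thraa+/-, while that of 5 endothelial markers was 790 to 808 CPM and 921 to 955 CPM. The part of these cells in the differences of the matrix genes was not tested.

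After injury, between 0 and 2 of the 9 genes were called between genotypes at each time. Over the 6 stages 10 of 54 gene and stage pairs were called (8.71% of such pairs over all genes). Without the fold cutoff 31 of 54 were, among them the higher CPM of FN1-6526 in thraa+/- from 1 dpi on. No share over all genes without that cutoff is given, for this count or for that at 8 hpi below. In TPM the FN1-6526 groups overlapped at 15 dpi (258 and 275 TPM in WT, 268 and 282 TPM in thraa+/-). At 8 hpi edgeR called none in either direction, where 6.88% of all genes were higher and 3.67% lower in thraa+/-. Without the fold cutoff 4 had a p under 0.05 there, adjusted or not, and DESeq2 put none of them past it: FN1-9815 (log2 fold change 0.50), POSTN-4267 (-0.89), SPARC (0.71) and VIM-0008 (-0.64, and past the cutoff at -1.005 without thraa+/- 8 hpi replicate 2). At 1 dpi 2 of 9 were lower and none higher (2.69% and 4.9% of all genes). POSTN-3806 was lower by a log2 fold change of -2.86 ± 0.15 (adjusted p = 8.71e-20) and TNC-1948 by -1.05 ± 0.16 (adjusted p = 2.33e-06). The thraa+/- libraries of POSTN-3806 stood apart there, at 4.70 and 2.50 CPM, both under the 26.1 and 27.4 CPM of WT. Its SE comes from the fit to all time-course libraries and does not show that spread. The TNC-1948 call was lost without thraa+/- 1 dpi replicate 2 (-0.96) and on the TPM scale (-0.14, adjusted p = 0.704, with 1 added to each TPM). At 3 dpi POSTN-3806 alone was lower, by -1.62 ± 0.11 (adjusted p = 1.76e-15, 3.34% of all genes lower and 5.23% higher). At 7 dpi TNC-1948 alone was lower, by -1.28 ± 0.09 (adjusted p = 2.45e-14, 3.31% of all genes lower and 2.94% higher), and at 15 dpi it alone was higher, by 1.67 ± 0.17 (adjusted p = 1.41e-10, 4.12% of all genes higher and 3.74% lower).

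Several marker lists differed between genotypes at 1 and 3 dpi, where POSTN-3806 was low in thraa+/-. The skin sum was 3977 to 4038 CPM in thraa+/- against 1243 to 1267 CPM in WT at 1 dpi, and 3849 to 3949 CPM against 471 to 472 CPM at 3 dpi, with 3 of 4 markers called higher in thraa+/- at each of these times. The fibroblast sum was lower in thraa+/- at 1 dpi (490 to 494 CPM against 789 to 830 CPM) and at 3 dpi (4697 to 4701 CPM against 6021 to 6033 CPM), with 1 of 7 and 0 of 7 markers called. The liver sum was lower too, at 65.5 to 66.4 CPM against 212 to 220.0 CPM at 1 dpi and 144 to 147 CPM against 562 to 574 CPM at 3 dpi, with 2 of 4 tested markers called at each time. The sum over 2 erythrocyte markers was 4445 to 4538 CPM against 7110 to 7209 CPM at 1 dpi and 12009 to 12025 CPM against 15277 to 15341 CPM at 3 dpi, with neither called. The epicardial sum was 259 to 265 CPM against 317 to 318 CPM at 1 dpi and 326 to 338 CPM against 451 to 455 CPM at 3 dpi. The endothelial sum was 523 to 532 CPM against 631 to 646 CPM at 1 dpi. At 3 dpi it was 493 to 505 CPM against 513 to 516 CPM. The leukocyte sum was higher in thraa+/- at 1 dpi (594 to 610 CPM against 521 to 524 CPM). It was lower at 3 dpi (529 to 556 CPM against 667 to 678 CPM). The skeletal muscle sum was lower at 1 dpi (2739 to 2802 CPM against 3206 to 3355 CPM). It was higher at 3 dpi (2007 to 2098 CPM against 1668 to 1682 CPM). At 3 dpi the cardiomyocyte sum was higher in thraa+/-, at 22979 to 23128 CPM against 16278 to 17039 CPM. Their part in the POSTN-3806 difference was not tested. POSTN-4267, from the same libraries, was higher in thraa+/- at 1 and 3 dpi, by 0.41 and 0.28 in log2 fold change (adjusted p = 6.55e-05 and 0.000929).

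Averaged over the 6 stages, no gene of the 9 was called between genotypes, where 5.76% of all genes were. Without the fold cutoff 7 of them had a p under 0.05, adjusted or not, and the size was between -0.81 (POSTN-3806) and 0.07 (FN1-6526). The share over all genes without the cutoff is not given. DESeq2 also called none. Without thraa+/- uninjured replicate 1, which held the only TNC-1948 count of its group, 1 was called.

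**Figure D2:**
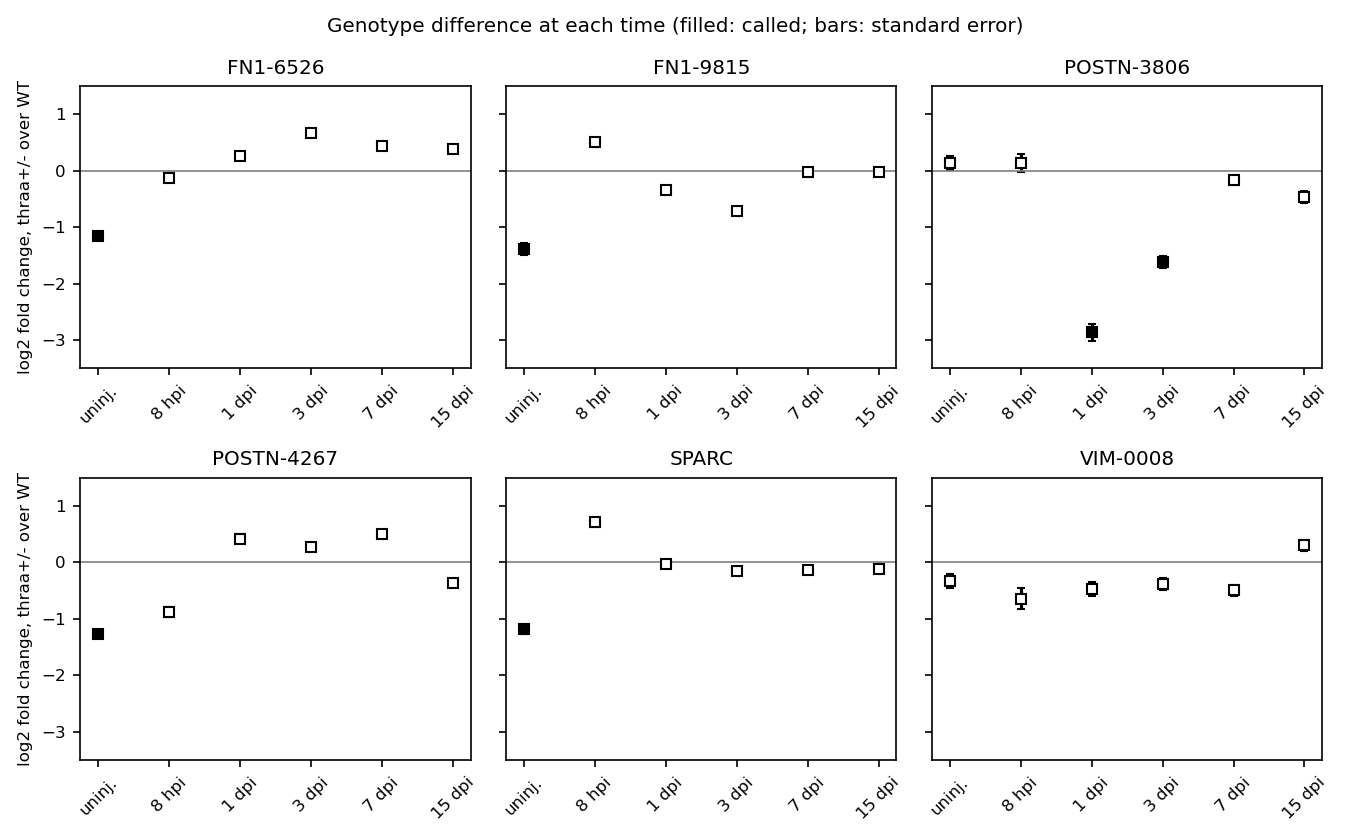
Log2 fold change of thraa+/- over WT at each stage for the 6 genes with more than 3 counts in every library group, from edgeR. Bars are standard errors from the fit to all time-course libraries. Filled squares pass the adjusted p and fold cutoffs, and the line at 0 is no difference. FN1-6526, FN1-9815, POSTN-4267 and SPARC are called only in the uninjured apex, and POSTN-3806 only at 1 and 3 dpi (-2.86 and -1.62).

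The difference of the injury response between genotypes, tested as an interaction, shares the uninjured groups with the comparisons above, so their values stand side by side here. FN1-6526 rose at 7 dpi by a log2 fold change of 2.72 in WT and 4.31 in thraa+/-, a difference of 1.59 ± 0.10 (adjusted p = 1.9e-16), while the genotypes differed by -1.15 uninjured and 0.43 at 7 dpi. For POSTN-4267 the rises were 3.61 and 5.38, with a difference of 1.78 ± 0.10 (adjusted p = 1.83e-18) beside genotype values of -1.28 uninjured and 0.50 at 7 dpi. For SPARC they were 1.59 and 2.65, with a difference of 1.06 ± 0.10 (adjusted p = 2.64e-11), and there the genotypes differed by -1.19 uninjured and -0.13 at 7 dpi (adjusted p = 0.181). The response of POSTN-3806 was lower in thraa+/- at 1 dpi, by -2.99 ± 0.20 (adjusted p = 4.3e-16), with no call between the uninjured groups.

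Counted over the 9 genes, the response was higher in thraa+/- for 4 at 8 hpi (8.11% of all genes), 5 at 1 dpi (5.81%), 4 at 3 dpi (4.67%), 5 at 7 dpi (6.39%) and 4 at 15 dpi (4.67%). It was lower for 1 at 1 dpi (5.13% of all genes) and 1 at 3 dpi (4.07%), in both cases POSTN-3806, and for none at 8 hpi, 7 dpi and 15 dpi (5.94%, 6.28% and 4.56%). The genes counted as higher were FN1-6526, FN1-9815, TNC-1948, POSTN-4267 and SPARC, all called lower in thraa+/- uninjured. The times share those uninjured libraries, so their counts are not independent. TNC-1948 is counted at each time and held 1 and 0 counts in uninjured thraa+/-. The difference in FN1-6526 at 8 hpi (1.03) was under the cutoff without WT 8 hpi replicate 2 (0.97) or without thraa+/- 8 hpi replicate 1 (0.90), and that in FN1-9815 at 1 dpi (1.05) without WT uninjured replicate 2 (0.94).

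The copies of a pair took changing shares of their common level. Shares were computed from TPM, in which RSEM corrects for the length of transcripts. FN1-9815 made up 2.94% and 3.57% of fibronectin TPM in uninjured WT, 8.89% and 8.35% at 8 hpi, 14.5% and 13.4% at 1 dpi, 33.2% and 32.9% by 3 dpi, 10.4% and 10.3% at 7 dpi, then 6.79% and 6.53% in the 15 dpi libraries. In thraa+/- it made up 3.67% and 3.20% uninjured, 12.03% and 13.5% at 8 hpi, 8.61% and 9.07% at 1 dpi, 17.7% and 17.3% by 3 dpi, 9.76% and 9.91% at 7 dpi, then 6.52% and 5.82% in the 15 dpi libraries. The WT libraries had the higher shares at 1, 3, 7 and 15 dpi, with the groups nearest each other at 15 dpi (6.53% against 6.52%), the thraa+/- libraries had them at 8 hpi, and uninjured the groups overlapped. As a share of counts instead of TPM, FN1-9815 made up a mean of 63.5% in WT at 3 dpi and 40.0% in thraa+/-.

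POSTN-4267 made up a mean of 63.6% of periostin TPM in uninjured WT and 40.4% in uninjured thraa+/-. At 1 dpi the order was turned: 28.1% and 29.4% in WT against 77.6% and 86.2% in thraa+/-. From 3 dpi on it was the main copy in both, at 74.7% to 83.5% in WT and 81.0% to 92.8% in thraa+/-. The shares are given as a description, with no test.

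**Figure D3:**
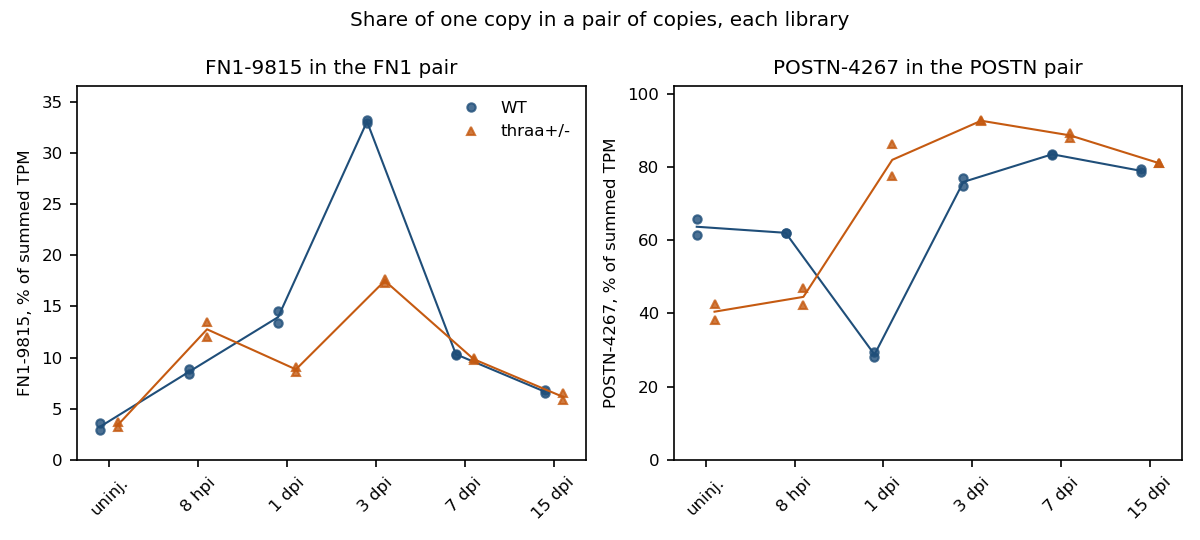
Share of FN1-9815 in the summed TPM of the fibronectin copies (left) and of POSTN-4267 in that of the periostin copies (right), in % for each library, with lines through group means. FN1-9815 reaches 32.9% and 33.2% in WT at 3 dpi against 17.3% and 17.7% in thraa+/-, and POSTN-4267 is lower in WT than in thraa+/- at 1 dpi.

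The ratio of a gene's count to its TPM gives the mean length of the transcripts to which RSEM assigned its reads, relative to other genes. It was scaled by the median over 3990 genes with at least 50 counts and 5 TPM in each library, and set to 1 for the mean of uninjured WT. For FN1-6526 this length changed with time and genotype. In WT it was 0.98 and 1.02 uninjured, 1.20 and 1.17 at 8 hpi, 1.06 and 1.01 at 1 dpi, 0.88 and 0.85 by 3 dpi, 1.07 and 1.04 at 7 dpi, then 1.06 and 1.09 in the 15 dpi libraries. In thraa+/- it was 1.299 and 1.19 uninjured, 1.16 and 1.21 at 8 hpi, 0.94 and 0.93 at 1 dpi, 0.97 and 0.97 by 3 dpi, 1.38 and 1.39 at 7 dpi, then 1.32 and 1.28 in the 15 dpi libraries. The thraa+/- libraries lay above the WT libraries uninjured and at 3, 7 and 15 dpi and below them at 1 dpi, and the groups overlapped at 8 hpi. In whole hearts it was between 2.27 and 2.52 over the 4 libraries of both genotypes. These come from a separate experiment on other tissue, so experiment and tissue cannot be told apart there.

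The highest over the lowest length of FN1-6526 in the time course was 1.64, a range wider than that of 96.1% of the genes compared, whose median was 1.06. For SPARC the same ratio was 1.07, and the lengths of VIM-0008 lay between 1.00 and 1.01. FN1-6526 was not the only member to vary: over time-course libraries with at least 50 counts the length lay between 1.00 and 1.23 for POSTN-3806, between 0.84 and 1.02 for POSTN-4267, and between 1.12 and 2.60 for TNC-1948, whose uninjured WT reference rests on 12 and 15 counts. The genotype difference of FN1-6526 was smaller in mean TPM than in CPM at 3, 7 and 15 dpi, for example with 1067 and 1097 TPM in WT and 1182 and 1134 TPM in thraa+/- at 7 dpi. At 15 dpi the groups overlapped in TPM but not in CPM. The genotype difference was larger in TPM uninjured (means of 102 TPM in WT and 36.3 TPM in thraa+/-) and at 1 dpi (175 and 241 TPM). The counts by themselves do not show whether the transcripts present or only their assignment by RSEM changed.

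**Figure D4:**
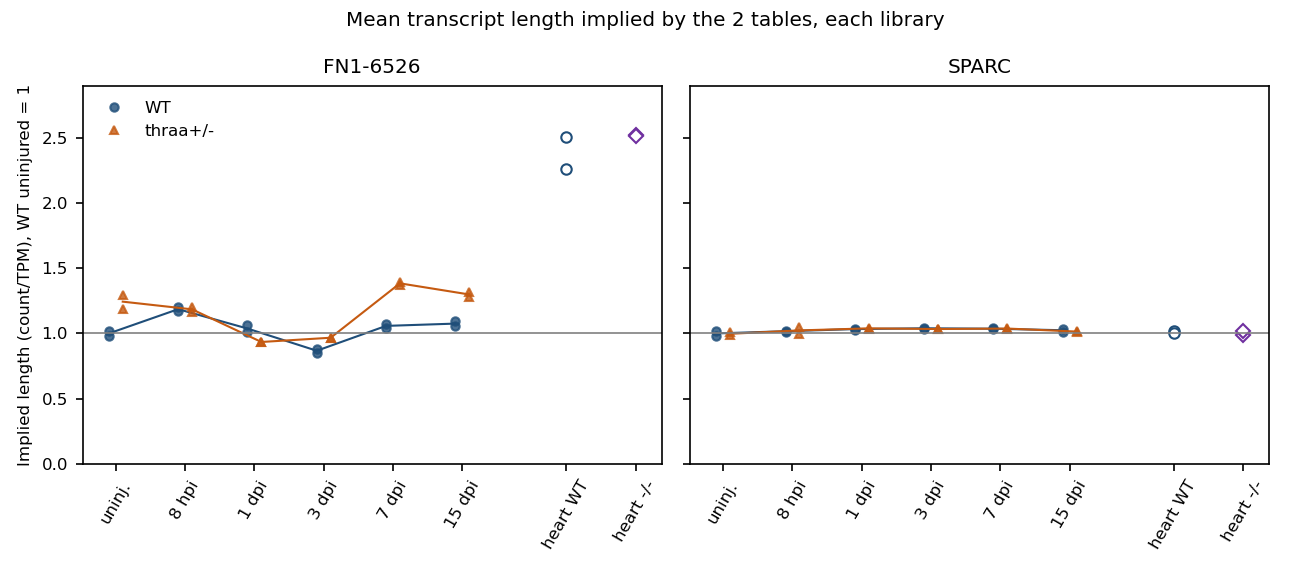
Mean transcript length implied by count over TPM, for FN1-6526 and SPARC in each library, relative to the mean of uninjured WT. Filled points are the time course, with lines through group means, and open points the whole hearts. In the time course FN1-6526 lies between 0.85 and 1.39, and its whole-heart points between 2.27 and 2.52, while SPARC stays near 1.

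In uninjured whole hearts 1 of the 7 genes that could be tested was lower in thraa-/- than in WT, and none was higher, where 9.54% of all 15793 genes were lower and 9.66% higher. Here a log2 fold change of at least 0.58 was asked. POSTN-3806 was at 29.2 and 35.2 CPM in WT and at 17.3 and 20.9 CPM in thraa-/-, without overlap, a log2 fold change of -0.76 ± 0.16 (adjusted p = 0.00912). The call rested on both mutant libraries: it was -0.62 (adjusted p = 0.113) without thraa-/- replicate 1 and -0.89 (adjusted p = 0.0505) without thraa-/- replicate 2. SPARC was at 346 and 412 CPM in WT and 279 and 302 CPM in thraa-/-, also apart, with -0.38 ± 0.11 (adjusted p = 0.0391) under the fold cutoff.

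The other genes of the set did not pass the test in whole hearts. FN1-6526 was at 484 and 738 CPM in WT, which enclosed the 542 and 534 CPM of thraa-/-. FN1-9815 (104 and 95.7 CPM against 92.3 and 110 CPM) and POSTN-4267 (64.6 and 83.2 CPM against 43.4 and 68.5 CPM) overlapped too. VIM-0008 was at 103 and 107 CPM in WT and 115 and 122 CPM in thraa-/-, and TNC-1948 at 2.20 and 1.86 CPM against 1.18 and 1.295 CPM, each apart but not called (adjusted p = 0.255 and 0.225). TNC-8362 and VIM-4501 held 0 to 12 counts and were not tested. The 7 genes had a median log2 fold change of -0.38, beside -0.02 over all genes. Between these libraries the sum over 6 leukocyte markers was lower in thraa-/- (48.9 to 60.3 CPM against 99.6 to 102 CPM, 4 of 6 called), as was that over 7 fibroblast markers (1102 to 1244 CPM against 1471 to 1491 CPM, 2 of 7 called). The liver sum was 9.14 to 10.9 CPM in thraa-/- against 56.5 to 124 CPM (2 of 3 tested markers called lower), and the erythrocyte sum 11136 to 11663 CPM against 4980 to 7814 CPM (1 of 2 called higher). Their part in the POSTN-3806 difference was not tested.

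**Figure D5:**
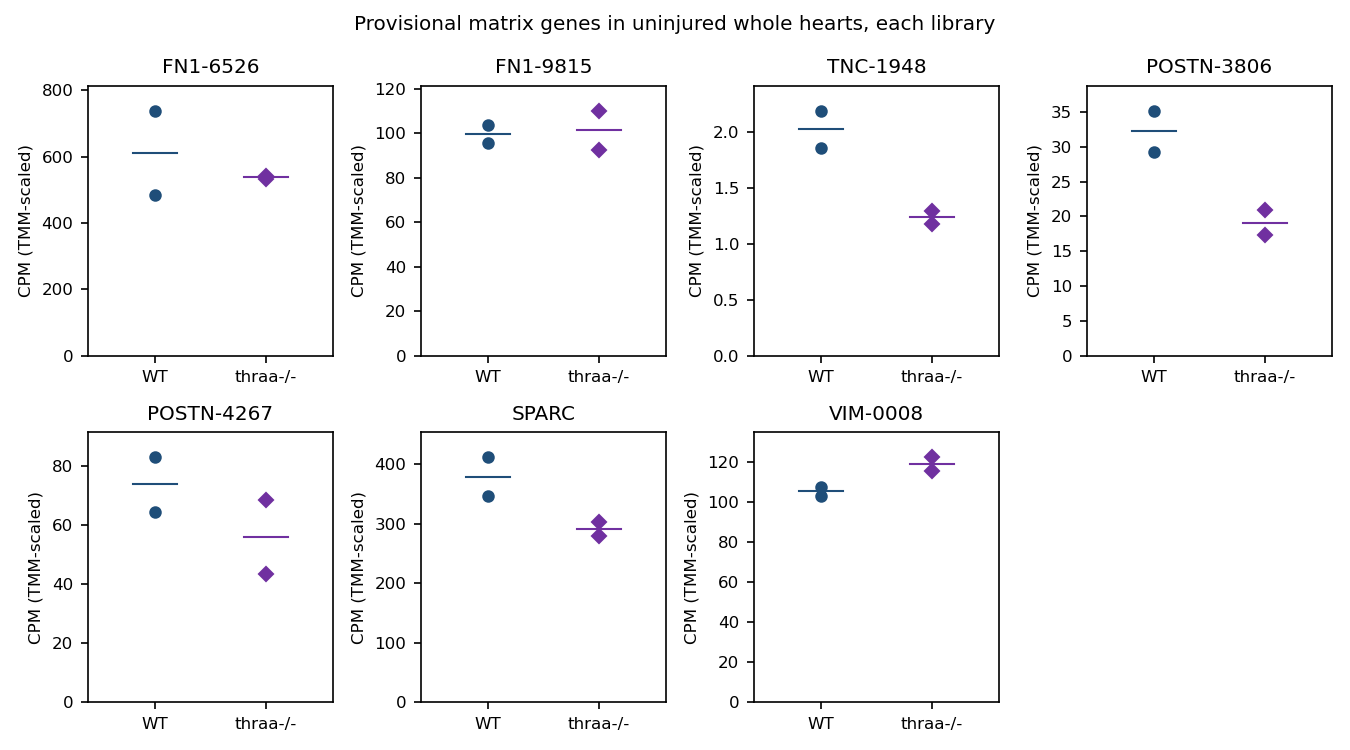
TMM-scaled CPM in each whole-heart library for the 7 genes tested, with short lines at group means (WT circles, thraa-/- diamonds). POSTN-3806 is the gene called lower in thraa-/- (29.2 and 35.2 against 17.3 and 20.9 CPM).

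Genes that work with these proteins were followed in 7 lists. At 7 dpi in WT, where 24.2% of all genes were higher and 13.6% lower, 5 of 13 fibronectin receptor genes were higher and 2 lower. Among them ITGB3 (ENSDARG00000045070), an integrin beta subunit, went from 0 and 0.104 CPM uninjured to 6.63 and 4.78 CPM, and ITGA4, an integrin alpha subunit, from 1 and 0 counts to 36 and 22 counts. ITGA5, the alpha subunit of the classical fibronectin receptor, was lower, at 500.2 and 476 CPM uninjured and 140 and 142 CPM at 7 dpi (log2 fold change -1.79 ± 0.07, adjusted p = 6.26e-25). ITGB1, its usual beta partner, had 4 identifiers, which did not move alike. ENSDARG00000022689 of ITGB1 was at 3.00 and 2.91 CPM and then 0.894 and 1.52 CPM (-1.299 ± 0.43, adjusted p = 0.00872, but 0.118 without WT 7 dpi replicate 1). The others, given after their values were seen, were ENSDARG00000104484 of ITGB1, which rose from 3.50 and 4.47 CPM to 42.9 and 44.3 CPM (3.45 ± 0.29, adjusted p = 3.26e-09), ENSDARG00000071863 of ITGB1, at 38.7 and 41.7 CPM and then 74.7 and 73.4 CPM (0.88, under the fold cutoff), and ENSDARG00000053232 of ITGB1, at 0.200 and 0.312 CPM and then 0.842 and 1.22 CPM (adjusted p = 0.0535). The median of the list was 1.85.

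Other matricellular genes had 11 of 21 higher and none lower at 7 dpi in WT (24.2% and 13.6% of all genes), with a median of 1.70. THBS4 (ENSDARG00000020072), a thrombospondin, rose from 0.200 and 0.416 CPM to 71.5 and 74.3 CPM (7.86 ± 0.25 in log2 fold change, adjusted p = 1.13e-27), and spp1, coding for osteopontin, from 0.300 and 0.208 CPM to 18.8 and 18.8 CPM. The smallest called rises were those of fbln5, an elastic fibre protein (1.35), and thbs2a, another thrombospondin (1.53). In the list for hyaluronan and versican 9 of 10 tested genes were higher and none lower (median 2.44, or 1.99 with count ratios or bounds for genes at the floor). Its named genes were HAPLN1 (ENSDARG00000102395), which links hyaluronan to proteoglycans (0 and 0 counts uninjured, 2.00 and 3.38 CPM at 7 dpi), the hyaluronan receptors cd44a (0 and 0 counts, then 0.368 and 0.700 CPM) and cd44b (0.400 and 0.104 CPM, then 0.736 and 1.28 CPM, not called without WT uninjured replicate 2 or WT 7 dpi replicate 2), and vcanb, a versican (1.48 ± 0.12, adjusted p = 2.13e-14).

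Of the list for matrix cross-linking and collagen processing, 12 of 20 genes were higher and 1 lower at 7 dpi in WT (24.2% and 13.6% of all genes, median 1.45). LOX, lysyl oxidase, rose by 3.99 ± 0.20 in log2 fold change (adjusted p = 2.73e-21), and TGM2 (ENSDARG00000070157), a transglutaminase, from 0 and 0.208 CPM to 1.32 and 1.11 CPM. P4HA2, a collagen prolyl hydroxylase, was the gene called lower (-1.21 ± 0.09, adjusted p = 8.23e-16), and SERPINH1 (ENSDARG00000075954), a collagen chaperone, had the smallest called rise (1.16). At 8 hpi in WT 9 of the 20 were lower and none higher, where 12.5% of all genes were lower and 16.5% higher. The median was -1.37. It was -1.10 with count ratios or bounds for genes at the floor and without the 1 gene at the floor in both groups.

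In the TGF-beta list 4 of 10 were higher and 1 lower at 7 dpi in WT (24.2% and 13.6% of all genes, median 1.09). The ligand TGFB2 rose by 3.42 ± 0.46 (adjusted p = 9.84e-08) and the latency protein LTBP1 by 1.34, while the ligand TGFB3 fell by 1.78 ± 0.07 (adjusted p = 8.04e-26). The intermediate filament list, the family of vimentin, had 3 of 8 higher (nes, coding for nestin, 2.14; krt18b, a keratin, 1.82; LMNA, a lamin, 1.82) and 1 lower (plecb, the linker plectin, -1.02, and -0.9976 without WT uninjured replicate 2), with a median of 0.47. Of 8 genes for fibrinogen, vitronectin and factor XIII, which cross-links fibrin, 4 could be tested and 3 were higher: F13A1 (ENSDARG00000094832) by 2.87, f13a1b by 2.24 and F13A1 (ENSDARG00000045453) by 1.77.

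Between genotypes 64 of 516 comparisons of list genes over the 6 stages were called, 28 higher and 36 lower in thraa+/-, where 8.71% of such comparisons over all genes were called. In the uninjured apex, where 5.79% of all genes were lower and 5.68% higher in thraa+/-, 2 of 13 fibronectin receptors, 4 of 20 cross-linking genes and 2 of 4 fibrin-related genes were lower and none was higher. Other matricellular genes had 2 of 21 lower and 1 higher there, and the hyaluronan and versican list 1 of 10 lower and 1 higher. edgeR called none of 10 TGF-beta and 8 intermediate filament genes, of which 3 and 4 had an unadjusted p under 0.05. The share of all genes with such a p is not given. F13A1 (ENSDARG00000045453) was called at 5 stages: it stood at 208 and 198 CPM in uninjured WT and 2.65 and 3.06 CPM in thraa+/- (log2 fold change -6.15 ± 0.14, adjusted p = 6.96e-30), was lower in thraa+/- also at 8 hpi, 1 dpi and 3 dpi (-1.56, -4.54 and -2.52), and was higher at 15 dpi (4.43). At 7 dpi, where it was not called, its levels were 697 and 690 CPM in WT and 614 and 602 CPM in thraa+/-.

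LOXL4 (ENSDARG00000025089), a lysyl oxidase relative, was lower in thraa+/- uninjured, at 1 dpi and at 15 dpi (-1.92, -2.05 and -1.29). HAS2, a hyaluronan synthase, was lower at 1 and 3 dpi (-1.24 and -1.29). At 3 dpi HAS2 stood at 34.3 and 33.9 CPM in WT and 13.03 and 14.8 CPM in thraa+/-. The link protein gene hapln1a was lower at 8 hpi and 1 dpi (-1.44 and -1.99), and THBS4 (ENSDARG00000102777) at 1 and 15 dpi (-2.25 and -2.02). THBS4 (ENSDARG00000020072) was at 25.5 and 25.5 CPM in thraa+/- against 78.7 and 81.4 CPM in WT at 15 dpi (-1.65 ± 0.12, adjusted p = 8.07e-15). At 8 hpi the same identifier was called higher in thraa+/-, on 10 and 2 counts against 0 and 0 in WT. spp1 was lower in thraa+/- at 15 dpi (-4.51 ± 0.23, adjusted p = 6.96e-20), and was called lower uninjured on 0 and 0 counts against 3 and 2 in WT.

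cd44a was higher in thraa+/- at 1 dpi (169 and 169 CPM against 42.4 and 42.0 CPM) and at 3 dpi (35.2 and 35.5 CPM against 3.20 and 2.08 CPM). It was called lower at 7 and 15 dpi, when it was at most 0.774 CPM in any library. The marker sums set beside POSTN-3806 above, among them that of skin, differed between genotypes in these same 1 and 3 dpi libraries. Their part in the calls of cd44a, HAS2 and other list genes at these times was not tested. FSTL1 (ENSDARG00000015559), a follistatin-like secreted protein, was lower uninjured (-2.88) and higher at 8 hpi (1.97). HAPLN1 (ENSDARG00000068516) was higher uninjured (1.17) and lower at the next stages, 8 hpi and 1 dpi (-1.61 and -1.08). The HAPLN1 calls uninjured and at 1 dpi fell under the fold cutoff without replicate 2 of the thraa+/- group concerned (0.96 and -0.97). vcana was lower at 3 dpi (-1.18), and SERPINH1 (ENSDARG00000019949) was lower at 1 dpi (-1.53) and higher at 8 hpi (1.34, or 0.96 without WT 8 hpi replicate 2).

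The remaining calls named by the rule were lost when 1 of several libraries was left out. They were those of TGFB2 at 8 hpi and 3 dpi (adjusted p up to 0.415 without thraa+/- 8 hpi replicate 2 and 0.158 without WT 3 dpi replicate 1), of vcana at 7 dpi (0.425 without thraa+/- 7 dpi replicate 1), of FBLN1 at 8 hpi, 7 dpi and 15 dpi (0.579 without WT 8 hpi replicate 1, 0.238 without thraa+/- 7 dpi replicate 1 and 0.315 without thraa+/- 15 dpi replicate 2), of cd44a at 7 dpi (0.344 without WT 7 dpi replicate 2), of uninjured spp1 (0.134 without thraa+/- uninjured replicate 2) and of fga, the fibrinogen alpha chain, at 8 hpi (0.156 without WT 8 hpi replicate 2). fga was also called higher in thraa+/- at 1 and 7 dpi, on 0 to 12 counts a library. In whole hearts 16 of 77 list genes tested were called, 7 higher and 9 lower in thraa-/- (9.66% and 9.54% of all genes).

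The genes whose log2 CPM was most like that of each member over the 24 time-course libraries are given as a description, since these points share their groups. FN1-6526 was most like SULF2 (Pearson r = 0.96), SNX17 (0.96) and TGM2 (ENSDARG00000074094, 0.95), and FN1-9815 most like NCAPG2 (0.98), NCAPH (0.97) and kif11 (0.97), genes of condensin and of the mitotic spindle. TNC-1948 was most like LOX (0.96), SMC2 (0.96) and si:dkey-6n21.12 (0.96), and TNC-8362 like twist1a (0.93), BCL6B (0.93) and COL1A1 (ENSDARG00000035809, 0.92). POSTN-3806 stood next to vwf, coding for von Willebrand factor (0.92), ITLN1 (0.92) and NID1 (0.92), and POSTN-4267 next to VASN (0.97), cd74b (0.97) and cd248b (0.97). The sum over the 5 endothelial markers, vwf among them, was 790 to 808 CPM in uninjured WT and 631 to 649 CPM at 7 dpi. SPARC was most like C1QTNF5 (0.99), LOXL2 (ENSDARG00000044074, 0.98) and DKK3 (0.97), VIM-0008 like flnb (0.98), ccdc3b (0.97) and ANGPTL1 (0.97), and VIM-4501, at its low counts, like itln1 (0.81), CISD2 (0.79) and THOC7 (0.79). Among the members themselves, FN1-9815 and TNC-1948 had an r of 0.97.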

How the data were processed

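The authors trimmed reads with Trim Galore, aligned them to zebrafish GRCz11 with STAR and quantified genes with RSEM. The annotation release is not given in the sources used here. The deposited tables hold RSEM expected counts per gene and library, and the authors' TPM values (in which RSEM divides by effective transcript length). Expected counts were rounded to whole numbers and tested with edgeR 4.0.16 in R 4.3.3 (filterByExpr, TMM, robust quasi-likelihood test), with Benjamini-Hochberg adjustment over all genes tested. The 24 time-course libraries were fitted together with a mean for each of 12 groups, and the 4 whole hearts apart. A gene was called at an adjusted p under 0.05 if its log2 change, up or down, reached 1 (time course) or 0.58 (whole hearts). The adjusted p-values here are edgeR's unless another tool is named. They measure the spread between pooled libraries, with 2 to a group. In the time course these p-values and the standard errors (±) rest on the fit to all 24 libraries, not on the compared groups alone. Each standard error was derived from the test, as the absolute log2 fold change divided by the square root of its F statistic. Where the libraries of a group stood further apart than in other groups, both can overstate how well its replicates agreed. Where a group was at or under 3 counts in each library, counts and their ratio with an exact 95% interval replaced the fold change; intervals cover counting error only.

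Members and lists were chosen with earlier results of these data known. Genes were matched by symbol through a table of Ensembl identifiers. Named genes beside the members were the 3 most like each member, up to 4 per companion list at 7 dpi in WT, list genes called between genotypes at 2 or more stages, and THRA; 1 gene that this rule names is not reported here. Of 200 genes changed in simulated counts, 97% were recovered. The simulation gave every gene the same spread, left all other genes unchanged and used changes larger than the cutoff. It therefore checks the code and does not measure the power in these data. Alternatives were DESeq2 1.42.0, scaling by total counts, other filters, limma 3.58.1 on log2(TPM + 1) and log2(TPM + 0.1), a replicate block, the compared groups alone, and each library left out. No sequence or coordinate is given, since no genome of the files' build was used here.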

Additional observations from a re-analysis of the deposited data

Results flagged for a closer look

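The injury response of 6 of the 9 genes differed between thraa+/- and WT in a test of the difference itself, at 24 of 45 gene and time pairs (11.1% of such pairs over all genes). The count was 21 with total-count scaling, 23 with DESeq2 and 16 with limma on log2(TPM + 1). The share of 11.1% is that of the main fit, and none is given for these alternatives. Each value is a log2 difference of responses and shares the uninjured groups with the others. For FN1-6526 it was 1.03 at 8 hpi, 1.41 at 1 dpi, 1.81 at 3 dpi, 1.59 at 7 dpi, then 1.53 at the last time. For FN1-9815 it was 1.89 at 8 hpi, 1.05 at 1 dpi, 1.36 at 7 dpi, then 1.37 at 15 dpi. SPARC had 1.90 at 8 hpi, 1.17 at 1 dpi, 1.04 at 3 dpi, 1.06 at 7 dpi, then 1.08 at 15 dpi. POSTN-4267 had 1.69 at 1 dpi, 1.55 at 3 dpi and 1.78 at 7 dpi. These 4 genes were lower in thraa+/- before injury, by -1.15, -1.39, -1.19 and -1.28 in log2 fold change for FN1-6526, FN1-9815, SPARC and POSTN-4267. On log2(TPM + 1) the values of FN1-9815 at 1, 7 and 15 dpi (0.68, 0.97 and 0.88) and of SPARC at 3 dpi (0.998) were under the cutoff of 1, as were with total-count scaling those of FN1-6526 at 8 hpi (0.997) and of SPARC at 3 and 15 dpi (0.998 and 0.98).

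POSTN-3806 was the gene whose response was lower in thraa+/-, by -2.99 at 1 dpi and -1.75 at 3 dpi, and its uninjured levels overlapped. TNC-1948 had 1 and 0 counts in uninjured thraa+/-, so no size is given. Its adjusted p was 2.33e-06 at 8 hpi, 0.0015 at 1 dpi, 8.13e-07 at 3 dpi, 0.00267 at 7 dpi and 2.12e-09 at the last time, and DESeq2 lost the call of TNC-1948 at 7 dpi (adjusted p = 0.0637; 0.0498 at 1 dpi).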

How the results depend on the processing

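Of 116 comparisons of single members followed through the alternatives, 75 were called, 59 of these held under each alternative that could be fitted and 16 lost the call under at least 1, while none of those called turned direction. DESeq2 lost 2, total-count scaling 6, limma on log2(TPM + 1) 10, limma on log2(TPM + 0.1) 3, and leaving out 1 library 7. The DESeq2 losses among sparse genes, TNC-1948, TNC-8362 and VIM-4501, are given beside their calls and are not in these counts. On log2(TPM + 1) the calls of TNC-1948 in WT at 1 dpi (0.69), POSTN-4267 in thraa+/- at 8 hpi (-0.94) and FN1-9815 between uninjured genotypes (-0.95) were also under the cutoff. Total-count scaling moved the median of all genes by 0.41 to 0.89 against uninjured, by -0.10 to 0.04 between genotypes and by -0.25 in whole hearts. Only uncalled values reversed: TNC-1948 in WT at 15 dpi (-0.00032 and -0.0023 on the TPM scales), POSTN-4267 in thraa+/- at 1 dpi (0.28 with total-count scaling, 0.43 and 0.47 on the TPM scales) and SPARC there (0.33, 0.21 and 0.21). The cause was not tested.

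Between genotypes the 10 member calls were 6 when each library needed 10 counts, which drops sparse genes, and 31 without the fold cutoff. No share over all genes is given for the alternative counts in this section. The mean over stages gave 7 without the cutoff. In whole hearts the 1 call became 2 with total-count scaling, without the cutoff, and on each TPM scale (2 and 2), SPARC being the addition. Companion calls against uninjured were 422, and 246 with 10 counts in each library. Between genotypes they were 64, and 22 with 10 counts, 206 without the cutoff and 30 on log2(TPM + 1). In whole hearts they were 16 (7 higher, 9 lower), 27 with total-count scaling (3 and 24), 26 without the cutoff (13 and 13) and 26 on log2(TPM + 0.1) (2 and 24).

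With 1 library left out, member calls ranged from 55 to 60 against uninjured, 9 to 11 between genotypes, 22 to 24 for the response, 48 to 52 between successive times, 0 to 1 for the mean over stages and 0 to 1 in whole hearts, and companion calls in whole hearts from 10 (without thraa-/- replicate 2) to 24. Replicate numbers did not pair the libraries: 66 correlations of deviations between groups lay between -0.033 and 0.196, 1 of them over 0.1. A replicate block gave 59, 10, 24 and 51 member calls for the first 4 of these families, as without it, and 1 in whole hearts, and it changed no member's call.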
